A study of Mus musculus with 16 samples.

Results

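The genes of 6 chromatin enzymes were examined in blood stem cells of old and young mice: the DNA methyltransferases Dnmt1, Dnmt3a and Dnmt3b, the methylcytosine dioxygenase Tet2, and the H3K27 methyltransferases Ezh1 and Ezh2. Each gene was represented by a window on the mouse build mm9, and a member was any peak or island, in any of the 16 deposited lists, that touched one of the windows. The windows were chr9:20700000-20770000 for Dnmt1, chr12:3795000-3925000 for Dnmt3a, chr2:153460000-153525000 for Dnmt3b, chr3:133115000-133220000 for Tet2, chr11:101040000-101100000 for Ezh1 and chr6:47470000-47555000 for Ezh2. They ran from 60 kb for Ezh1 to 130 kb for Dnmt3a. Of 610361 peaks and islands in all lists, 425 touched a window. These were 34 of 71170 H3K4me3 peaks, 380 of 324058 H3K36me3 peaks and 11 of 215133 H3K27me3 islands.

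The old mice were 24 months and the young mice 4 months of age, all of strain C57BL/6 with no other treatment or allele named in the labels. Primary stem cells from bone marrow had been sorted by the SP-KSL-CD150+ gate, in which SP stands for the side population that pumps out a DNA dye, KSL for Kit-positive, Sca-1-positive and lineage-negative cells, and CD150 for a SLAM family surface receptor. Chromatin immunoprecipitation with sequencing (ChIP-seq) gave 2 old and 2 young lists for H3K4me3 (replicates 7 and 8 of each age), 3 old and 3 young lists for H3K36me3 (replicates 4, 5 and 6) and 3 old and 3 young lists for H3K27me3 (replicates 1, 2 and 3). The labels describe every sample as a technical replicate of a numbered biological one and give neither sex nor the number of mice pooled. The p-values below therefore measure the spread between these lists, which may be partly technical. Since cells were assayed in bulk, a mark carried by fewer cells and a weaker mark in every cell cannot be told apart. The marker genes of the sorting gate were not located, because an mm9 annotation was not used here, so the labelled cell type was not checked.

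Dnmt1 copies methylation onto the new DNA strand after replication, while Dnmt3a and Dnmt3b place methyl groups on CG sites that lacked them. Tet2 oxidises methylcytosine, the first step of active demethylation, and Ezh1 and Ezh2 are the alternative catalytic subunits of Polycomb repressive complex 2, which writes H3K27me3. DNMT3A and TET2 are among the genes most often mutated in clonal blood formation of ageing humans, and loss of Dnmt3a or Tet2 in mice raises the self-renewal of blood stem cells. Among the marks measured, H3K4me3 lies at promoters that are active or ready for activation, H3K36me3 over the bodies of transcribed genes, and H3K27me3 over genes silenced by Polycomb.

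The start sites of these genes differ widely in content of CG, the site at which the encoded DNA methyltransferases and Tet2 act. RefSeq promoters on GRCm38.p6 were matched for 6 of 6 genes, with 10 annotated starts between them, and the 250 bp upstream of each start were taken. The sequences below were chosen because they span the range of CG content and because Dnmt3a has 2 separate H3K4me3 regions and 2 separate groups of starts. They run 5′ to 3′ toward the start site, with every CG dinucleotide in capitals. The files use mm9, and since coordinates were not converted between builds, the position of these bases relative to the peaks was not determined.
Dnmt1 start 1 (chr9:20959889-20960138, minus strand): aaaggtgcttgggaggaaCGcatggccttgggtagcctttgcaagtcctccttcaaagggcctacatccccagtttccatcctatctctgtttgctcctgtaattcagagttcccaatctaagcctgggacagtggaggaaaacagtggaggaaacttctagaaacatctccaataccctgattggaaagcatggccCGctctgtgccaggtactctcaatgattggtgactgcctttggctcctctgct
Dnmt3a start 1 (chr12:3806730-3806979, plus strand): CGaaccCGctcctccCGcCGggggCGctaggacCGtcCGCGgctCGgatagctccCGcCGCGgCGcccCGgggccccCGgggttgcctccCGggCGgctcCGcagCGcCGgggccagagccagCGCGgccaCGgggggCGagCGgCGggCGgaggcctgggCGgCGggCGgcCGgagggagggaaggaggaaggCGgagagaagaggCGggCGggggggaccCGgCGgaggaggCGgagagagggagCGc
Dnmt3a start 3 (chr12:3891494-3891743, plus strand): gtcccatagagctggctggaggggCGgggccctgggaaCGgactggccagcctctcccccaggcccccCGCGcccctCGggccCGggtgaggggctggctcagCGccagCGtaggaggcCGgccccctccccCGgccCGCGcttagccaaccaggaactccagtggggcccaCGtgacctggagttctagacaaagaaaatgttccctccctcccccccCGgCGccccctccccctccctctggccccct
Tet2 start 1 (chr3:133544391-133544640, minus strand): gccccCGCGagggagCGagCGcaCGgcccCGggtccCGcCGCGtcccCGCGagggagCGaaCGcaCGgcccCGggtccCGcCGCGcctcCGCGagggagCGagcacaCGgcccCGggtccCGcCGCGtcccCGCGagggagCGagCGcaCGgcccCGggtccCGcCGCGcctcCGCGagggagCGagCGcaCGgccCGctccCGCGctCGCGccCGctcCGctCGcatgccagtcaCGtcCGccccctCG
Ezh1 start 1 (chr11:101226464-101226713, minus strand): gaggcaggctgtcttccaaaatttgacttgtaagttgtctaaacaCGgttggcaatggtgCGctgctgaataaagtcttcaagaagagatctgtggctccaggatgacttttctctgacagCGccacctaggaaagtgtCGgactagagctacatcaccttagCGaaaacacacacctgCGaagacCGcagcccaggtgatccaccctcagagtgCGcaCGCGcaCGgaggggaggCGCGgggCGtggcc
Ezh2 start 1 (chr6:47595031-47595280, minus strand): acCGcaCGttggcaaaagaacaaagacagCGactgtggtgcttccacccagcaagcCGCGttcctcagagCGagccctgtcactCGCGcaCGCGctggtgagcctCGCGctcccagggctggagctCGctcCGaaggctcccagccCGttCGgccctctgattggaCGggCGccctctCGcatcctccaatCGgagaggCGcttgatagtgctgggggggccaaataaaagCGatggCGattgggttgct
The Tet2 sequence held 51 CG dinucleotides, more than in 99.9% of 32851 RefSeq promoters of the same length, of which 92.1% held at least 1 CG and the median held 6. Dnmt3a start 1 held 38 and Dnmt3a start 3 held 15, placing them above 98.1% and 72.7% of promoters. Ezh2 held 23 and Ezh1 held 14, while Dnmt3b, not printed, held 21. Both genes with several starts spanned a wide range. Dnmt3a start 2, not printed, held 40, and Dnmt1 held 2 CG dinucleotides at start 1 and 26 at start 3, which lies 7.27 kb further into the gene. A CG count describes these letters and was not compared with the peak values.

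**Figure D1:**
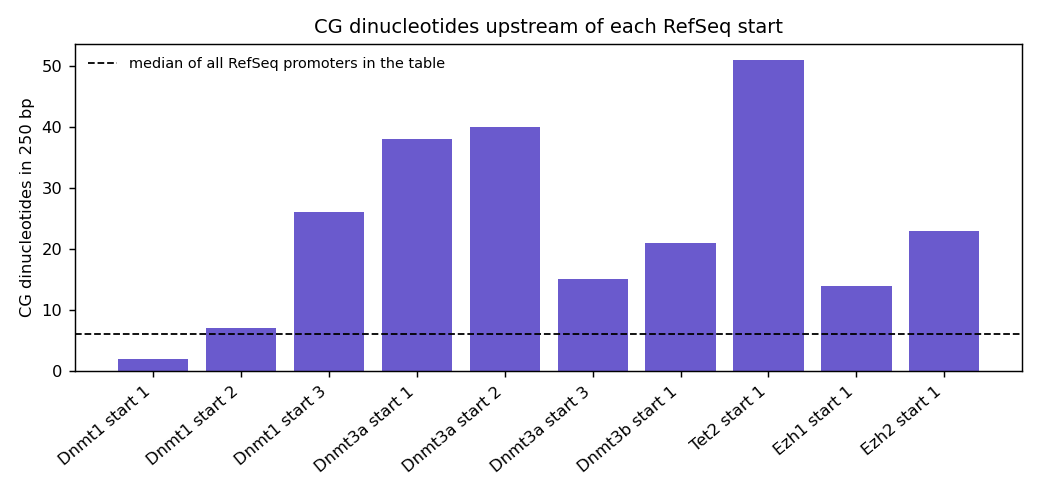
Bars give the number of CG dinucleotides (vertical axis, count in 250 bp) upstream of each of the 10 RefSeq starts of the 6 genes on GRCm38.p6, and the dashed line the median of 6 over 32851 promoters. Tet2 has the highest bar, at 51, and Dnmt1 start 1, at 2, is the one bar under the line.

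Lists differed in ways that touch the values below. H3K4me3 lists held 16258 to 19923 peaks, and 47.7 to 59.7% of them had a score of 3100 or more, so that scores separate only the weaker peaks. Young H3K36me3 replicate 4 stood apart with 6399 peaks over 5.90 Mb, against 39362 to 84437 peaks over 41.6 to 138 Mb in the other H3K36me3 lists. Among those, young replicate 5 had narrow peaks, with a median width of 354 bp against 1041 to 1437 bp in the remaining 4. Young H3K27me3 replicate 1 was within the range of its mark in number of islands, at 46988, and in covered length, at 169 Mb. It stood apart at these windows. Its nearest island lay 984 kb from the leading Ezh1 region, against 0 to 33.0 kb in the other lists. Its placement over the genome was not compared, so setting it aside rests on these windows. Results for these marks are given with and without the list that stood apart. Read depth is not known for any list, and a longer covered length can come from deeper sequencing as well as from more of the mark.

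H3K4me3 marked every one of the 6 genes at both ages. The windows held 9 merged H3K4me3 regions, and 8 of these were present in all 4 lists: a pair each in the Dnmt1 and Dnmt3a windows and a single region in each of the others. In 7 of these 8 the score was 3100 in every list, a level of 3100 or more in every list that 60.4% of the 14489 regions shared by all lists genome-wide also reached. Averaged over the lists, the leading Dnmt3a region was longer than 90.7% of the shared regions, the Tet2 region longer than 88.8% and the Ezh2 region longer than 86.6%. The Ezh1 region, at 42.3%, was close to the middle of that distribution.

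For Dnmt1, the maintenance methyltransferase, the leading region at chr9:20755691-20757813 was covered over 1890 and 1920 bp in old replicates 7 and 8, against 2123 and 1784 bp in young replicates 7 and 8. Both old values lay between the young ones. The other region of this window, at chr9:20701615-20703749, was covered over 1546 and 1412 bp in old lists, against 2135 and 1376 bp in young lists, and again young replicate 7 was the longest and young replicate 8 the shortest. The centres of the regions lay 54.1 kb apart. RefSeq gives Dnmt1 a length of 52.7 kb on the minus strand, with S1pr2 as the next gene on the side of higher coordinates and Eif3g on the other. The region at chr9:20701615-20703749 lay toward Eif3g, further from the leading region than that length, and was not assigned to a gene. RefSeq starts 2 and 3 are 356 bp apart and start 1 lies 6.91 kb before start 2, yet no list had a further H3K4me3 peak at such a distance from the leading region. In mice, oocytes use a Dnmt1 start upstream of the one used in somatic cells.

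Dnmt3a, a de novo methyltransferase, had the H3K4me3 region of the longest mean covered length in the 6 windows. At chr12:3805944-3809297 peaks covered 2873 and 3045 bp in old lists, against 2654 and 3354 bp in young lists, and the old values lay between the young ones. A second region at chr12:3890480-3892549 was covered over 1510 and 1582 bp in old lists, against 2070 and 1154 bp in young lists. It was the only shared region of the windows with scores under 3100, at 2738 and 2081 in old lists against 2963 and 1768 in young lists. The centres of the peaks at these regions lay 84.0 and 84.1 kb apart in old lists and 84.2 and 83.9 kb apart in young lists. RefSeq annotates a Dnmt3a start 84.6 kb beyond start 2 and 84.8 kb beyond start 1, on GRCm38. The shorter isoform of Dnmt3a is known to arise from a start inside the gene. Old replicate 8 alone held a further peak between them, at chr12:3856430-3857001, 572 bp long.

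Dnmt3b, the other de novo methyltransferase, had a single region at chr2:153474571-153477384, covered over 1932 and 2644 bp in old lists, against 2278 and 1996 bp in young lists. In old replicate 8 the region was split into a pair of peaks. Tet2 had the region of the most even length among the 8. At chr3:133205466-133208563 peaks covered 2722 and 2901 bp in old lists, against 2908 and 2848 bp in young lists, so that the means of 2811.5 ± 127 and 2878 ± 42.4 bp (SD, n = 2 each) differed by less than the spread of the old lists.

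At the Polycomb methyltransferases the regions were of unlike length. For Ezh1, at chr11:101086406-101088383, peaks covered 1290 and 1778 bp in old lists, against 1846 and 1408 bp in young lists. For Ezh2, at chr6:47543028-47546222, they covered 2377 and 2636 bp in old lists, against 3195 and 2629 bp in young lists. The Ezh2 means were 2506.5 ± 183 bp in old and 2912 ± 400.2 bp in young lists (SD, n = 2 each), and old replicate 8 was 7 bp longer than young replicate 8, so the ages overlapped. In each of the 4 lists the Ezh2 region was longer than the Ezh1 region.

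No H3K4me3 region in these windows passed the test for a change with age. With limma, 0 of these 8 had an adjusted p under 0.05, and of all 17307 tested regions 0 did (0%). At an unadjusted p under 0.05 it had 0 of the 8 regions, against 7.24% of all regions. The nearest was the Ezh2 region, at -0.20 on the log2 scale of covered bp plus 200 (SE 0.127, limma adjusted p = 0.979). On that scale the 8 regions ran from -0.20 at Ezh2 to 0.08 at Dnmt3b, with a median of -0.03, against 0.01 over all regions. The Dnmt3a regions, at -0.012 and -0.0062, turned to 0.0077 and 0.014 when each library was centred. Summed over whole windows, the differences ranged from -0.20 for Ezh2 to 0.08 for Dnmt3b, with exact permutation p between 0.667 and 1, where 0.33 is the smallest that 2 against 2 lists allow. The ages overlapped in all 6 windows, while among 100 kb bins of the genome old lists lay wholly above young ones in 17.7% and wholly below in 11.2%.

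**Figure D2:**
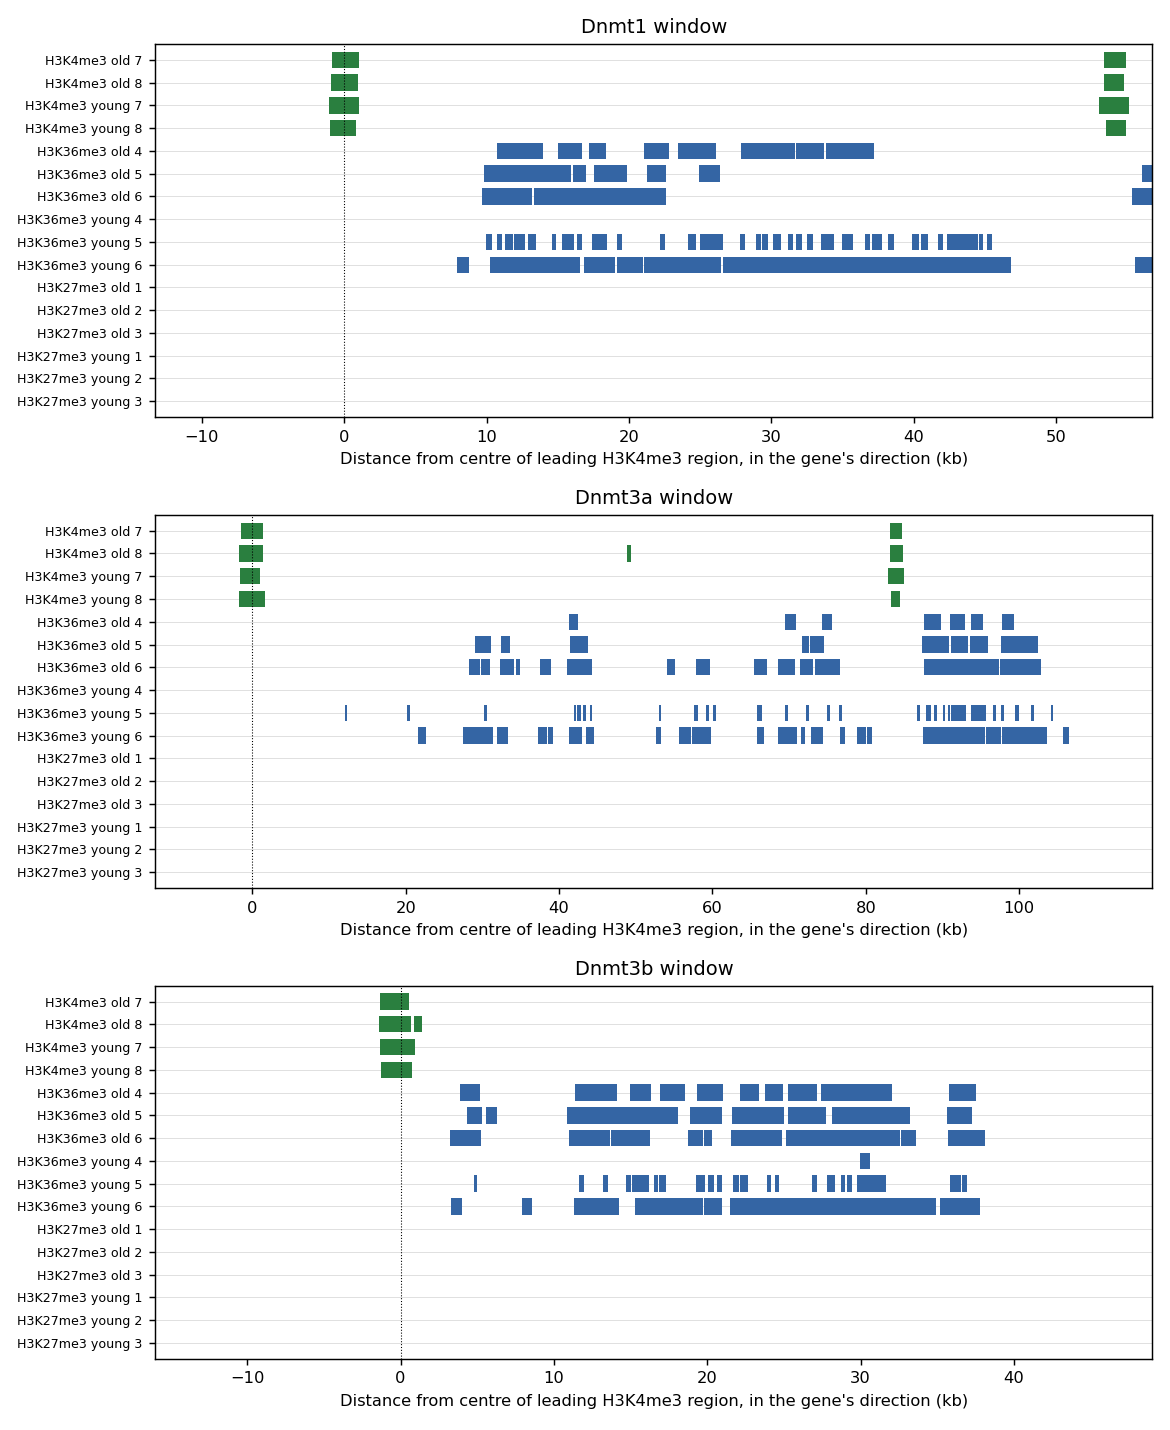
Maps of the Dnmt1, Dnmt3a and Dnmt3b windows, with 1 row per list (old above young within each mark) and the horizontal axis giving the distance in kb from the centre of the leading H3K4me3 region along the direction of the gene. Green bars are H3K4me3 peaks, blue bars H3K36me3 peaks and red bars H3K27me3 islands, and no red bar occurs in any of these windows.

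H3K36me3 lay on the side of the leading H3K4me3 region into which each gene runs. The direction was taken from the RefSeq strand, on the assumption that it is the same in mm9. In every list with H3K36me3 in a window, 100% of the covered length was on that side, with the exception of young replicate 4 in the Ezh2 window, at 42.1% of only 1328 bp. The windows reach only 10.4 to 15.98 kb to the other side, so a stretch of that same length was also measured on both sides. On the upstream side these stretches held 0 bp in all lists but the same one, which had 769 bp for Ezh2. On the gene side they also held 0 bp in all lists at Ezh2, and 0 bp at Dnmt3a in all but young replicate 5, which had 287 bp. At Dnmt3a and Ezh2 the mark began far inside the gene, over the lists that had any a median of 26.6 kb (10.4 to 39.6) from the Dnmt3a region and 23.2 kb (22.5 to 23.8) from the Ezh2 region. It began nearer at Dnmt3b, with a median of 2.70 kb, Tet2, with 5.41 kb, Ezh1, with 7.09 kb, and Dnmt1, with 8.79 kb.

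H3K4me3 and H3K36me3 did not overlap in these windows. Of 48 pairs made of a shared H3K4me3 region and an H3K36me3 list, 0 shared a base. This is common, since 91.6% of the 14489 shared H3K4me3 regions were touched by no H3K36me3 peak of any list. Around the second Dnmt3a region the lists other than young replicate 4 left a gap on both sides, with the nearest H3K36me3 peak 2.03 to 8.36 kb before it and 1.78 to 2.70 kb after it.

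In the Dnmt1 window H3K36me3 peaks covered 19646, 12948 and 14202 bp in old replicates 4, 5 and 6, against 0, 18427 and 38016 bp in young replicates 4, 5 and 6. The old lists lay within the young range, and without young replicate 4 the percentage of the window covered was 22.3 ± 5.09 in old (SD, n = 3) and 40.3 ± 19.8 in young lists (SD, n = 2). The leading region at chr9:20730173-20747050 was covered over 10561, 12195 and 12743 bp in old lists, against 0, 8132 and 15767 bp in young lists. Further into the gene, old coverage was uneven. The region at chr9:20718111-20730125 was covered over 9085, 0 and 0 bp in old lists, against 0, 6046 and 12015 bp in young lists. The region at chr9:20709928-20718105, singled out after its values were seen, was covered over 0 bp in all 3 old lists, against 0, 4249 and 8178 bp in young lists, with a log2 difference of -3.29 (limma adjusted p = 0.911). Over the window, 5491 bp lay under peaks of both young replicates 5 and 6 and of no old list, against at most 753 bp in any other window. In reverse, 0 bp lay under all 3 old lists and neither of those young lists, against at most 740 bp elsewhere, at Dnmt3b. These counts set 2 young lists against 3 old ones, and young replicate 6 covered the most of any H3K36me3 list, at 138 Mb. They leave out young replicate 4, which had 0 bp here. The share of the genome with such bases was not counted, so no difference with age is read from them.

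In the Dnmt3a window H3K36me3 covered 11242, 21426 and 36403 bp in old lists, against 0, 13802 and 40329 bp in young lists. Both ages spanned a wide range, and the old lists again lay inside the young one. The mark was denser beyond the second H3K4me3 region than between the 2 regions in each of the 5 lists that had any. Beyond it, peaks covered 22.5, 40.1 and 46.4% of 32.5 kb in old lists, against 24.4 and 51.1% in young replicates 5 and 6. Between the regions they covered 4.84, 10.4 and 26.3% of 81.2 kb in old lists, against 7.27 and 29.3% in those young lists. The leading region, at chr12:3894946-3911268, accounted for all of the old coverage beyond the second H3K4me3 region. It was covered over 7310, 13010 and 15044 bp in old lists, against 0, 7245 and 15828 bp in young lists.

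The Dnmt3b window was among the most covered in old lists, while in young replicates 5 and 6 the Dnmt1 window was the most covered, at 26.3 and 54.3%. Peaks covered 19371, 23560 and 22798 bp of the Dnmt3b window in old lists, against 662, 10297 and 26011 bp in young lists. The old lists were close to each other and the young lists were spread from the lowest to the highest value. The leading region at chr2:153497486-153510864 was the only leading H3K36me3 region of the 6 windows held by all 6 lists, and young replicate 4 held it with a single peak of 662 bp. Tet2 showed the same order of lists, with 18964, 26118 and 19906 bp in old lists, against 684, 6744 and 31824 bp in young lists. The Tet2 coverage was in many pieces, 15 merged regions, and the leading one at chr3:133138114-133146578 was covered over 4955, 7122 and 4418 bp in old lists, against 0, 1388 and 8055 bp in young lists.

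The Ezh1 window had H3K36me3 over 18412, 20629 and 21198 bp in old lists, against 0, 8622 and 23994 bp in young lists. Its leading region, at chr11:101052612-101062599, was covered over 7757, 6193 and 8980 bp in old lists, against 0, 4529 and 9603 bp in young lists. In the Ezh2 window the covered length was 9251, 14431 and 10793 bp in old lists, against 1328, 3302 and 20609 bp in young lists. Its leading region, at chr6:47463994-47477767, crossed the far edge of the window. It began 65.3 kb from the Ezh2 H3K4me3 region, where the RefSeq length of Ezh2 is 65.0 kb and the next gene in RefSeq order is Cul1. This region was covered over 8746, 10920 and 10600 bp in old lists, against 0, 2191 and 8910 bp in young lists, so 1 old and 1 young list crossed.

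When the stretch of 1 RefSeq gene length was measured from the centre of the leading H3K4me3 region, Dnmt3b and Ezh1 were the most covered genes in old lists, at 57.2 ± 5.82% and 56.8 ± 4.16% (SD, n = 3 each). The difference between them was smaller than either SD. Dnmt1 followed with 28.2 ± 7.88%, Tet2 with 26.4 ± 4.94% and Dnmt3a with 20.4 ± 11.2%, which overlapped within their SD, and Ezh2 was lowest with 9.03 ± 2.79%, a distance from Dnmt3a close to the SD of the Dnmt3a values. In young lists without replicate 4 the same stretches were covered to 52.4 ± 24.6% at Dnmt1, 47.4 ± 29.0% at Dnmt3b, 46.1 ± 30.7% at Ezh1, 24.0 ± 16.6% at Dnmt3a, 23.5 ± 22.0% at Tet2 and 13.2 ± 13.9% at Ezh2 (SD, n = 2 each). No neighbours in that order differed beyond their spread. With young replicate 4 included the young values ran from 9.10 ± 12.2% at Ezh2 to 34.9 ± 34.9% at Dnmt1 (SD, n = 3). The RefSeq starts of Dnmt1 span 7.27 kb and were not matched to its leading region. The Dnmt1 stretch may therefore reach past the gene end and understate its coverage.

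**Figure D3:**
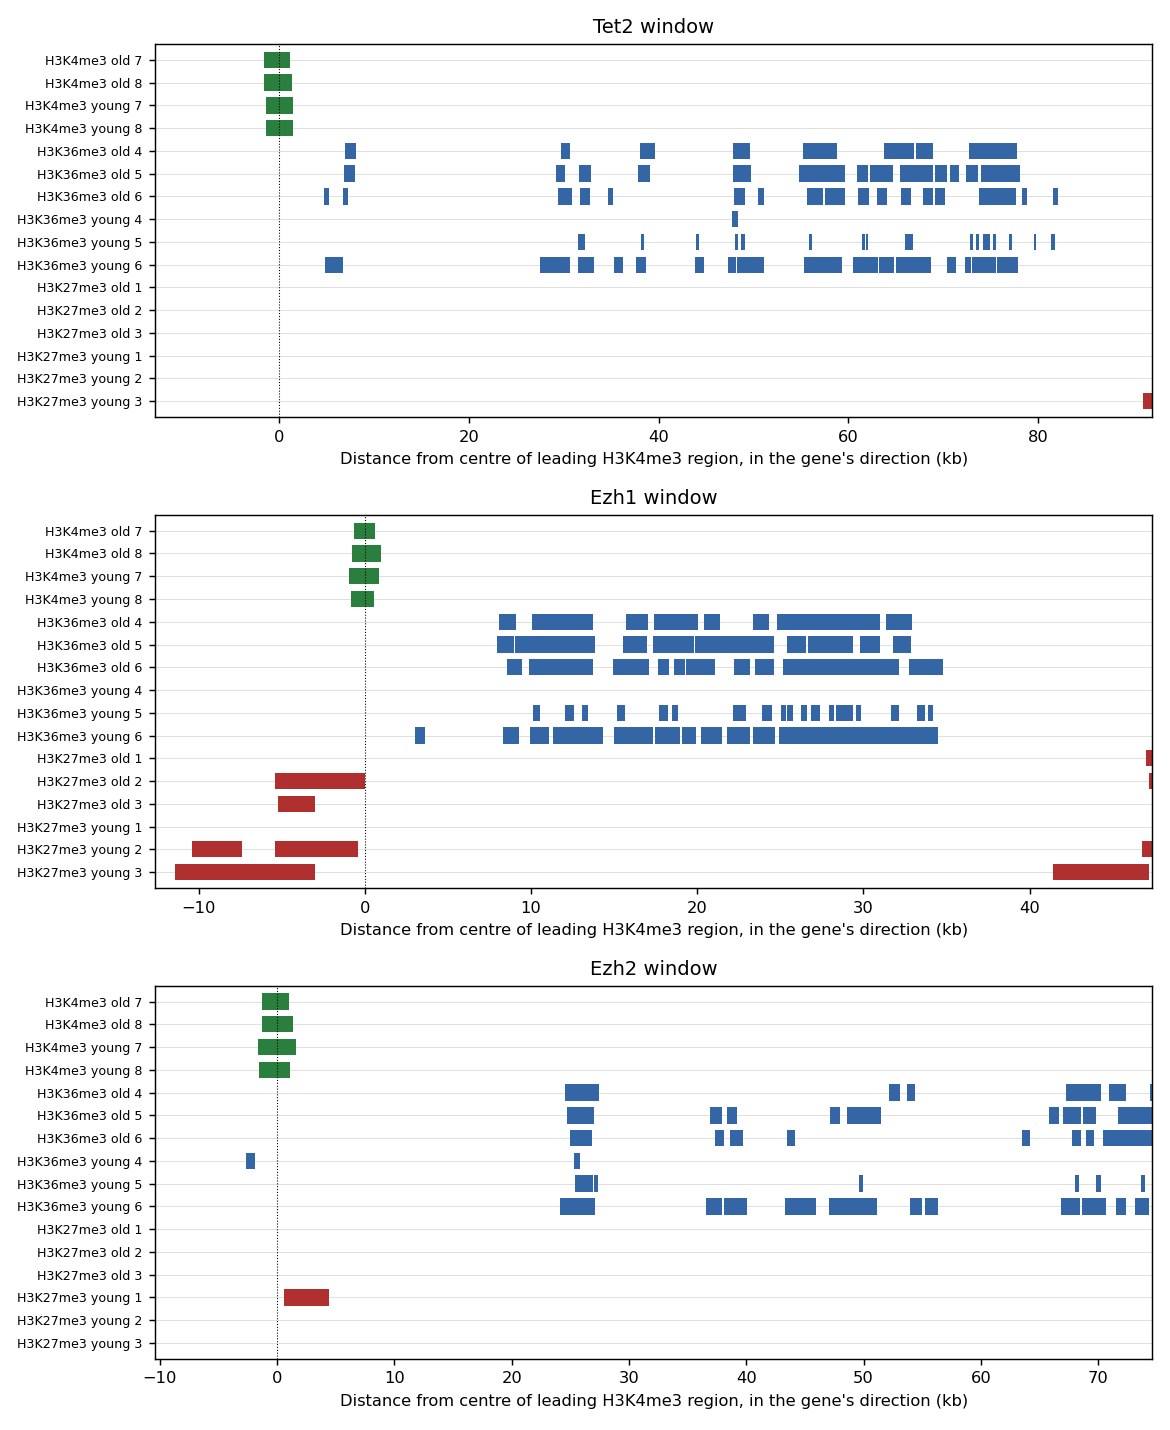
Maps of the Tet2, Ezh1 and Ezh2 windows, with 1 row per list (old above young within each mark), distance in kb from the centre of the leading H3K4me3 region along the horizontal axis, and green, blue and red bars for H3K4me3 peaks, H3K36me3 peaks and H3K27me3 islands. H3K36me3 starts a median of 23.2 kb into Ezh2 but 7.09 kb into Ezh1, and H3K27me3 islands next to the H3K4me3 region are seen at Ezh1 in 4 lists.

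With all 6 lists as deposited, H3K36me3 did not separate the ages at any of the 6 genes. Young replicate 6 had the longest covered length and young replicate 4 the shortest in all 6 windows, so the old lists lay between them every time. Over the genome, all old lists lay above all young lists in 1.63% of 100 kb bins and below in 0.0798%. The log2 differences of old minus young ranged from 1.26 at Ezh2 to 2.53 at Ezh1, with exact permutation p from 0.4 to 0.9, where 0.1 is the smallest possible for 3 against 3 lists. The median over all bins was 1.60. Without young replicate 4 they ranged from -0.78 at Dnmt1 to 0.54 at Tet2, with exact permutation p from 0.3 to 0.8 and a median over all bins of 0.19. The differences then ran below 0 in the Dnmt1 and Dnmt3a windows and above 0 in the other 4. For Ezh2 the window gave 0.43, but the stretch of 1 gene length gave -0.029. Again no window separated the ages, where 1.66% of bins lay above and 1.78% below. Limma called 0 of the 40 H3K36me3 regions tested in the windows and 0 of 45189 over the genome (0%). At an unadjusted p under 0.05 it had 1 of the 40, the Dnmt1 region at chr9:20709928-20718105, against 0.569% of all. The leading region of the Ezh2 window began 65.3 kb from the H3K4me3 region, beyond the 65.0 kb RefSeq length of Ezh2. Among the leading regions the differences ranged from 1.46 for Dnmt3b to 2.65 for the Ezh2 window (SE 1.53, limma adjusted p = 0.911). The median over all regions was 0.81, but the leading regions were picked for their long coverage and lengths were not matched. Without young replicate 4 the same regions had 0.057 for Dnmt1, 0.071 for Dnmt3a, 0.19 for Ezh1, 0.37 for Dnmt3b and 0.63 for Tet2, with 0 calls. The leading region of the Ezh2 window, not assigned to Ezh2, had 1.13. With equal numbers of peaks per list the old lists lay wholly above the young ones in the Tet2 and Ezh2 windows. The log2 differences were 4.38 and 1.30, with an exact permutation p of 0.1 each, in a setting where 10.8% of 100 kb bins did so.

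**Figure D4:**
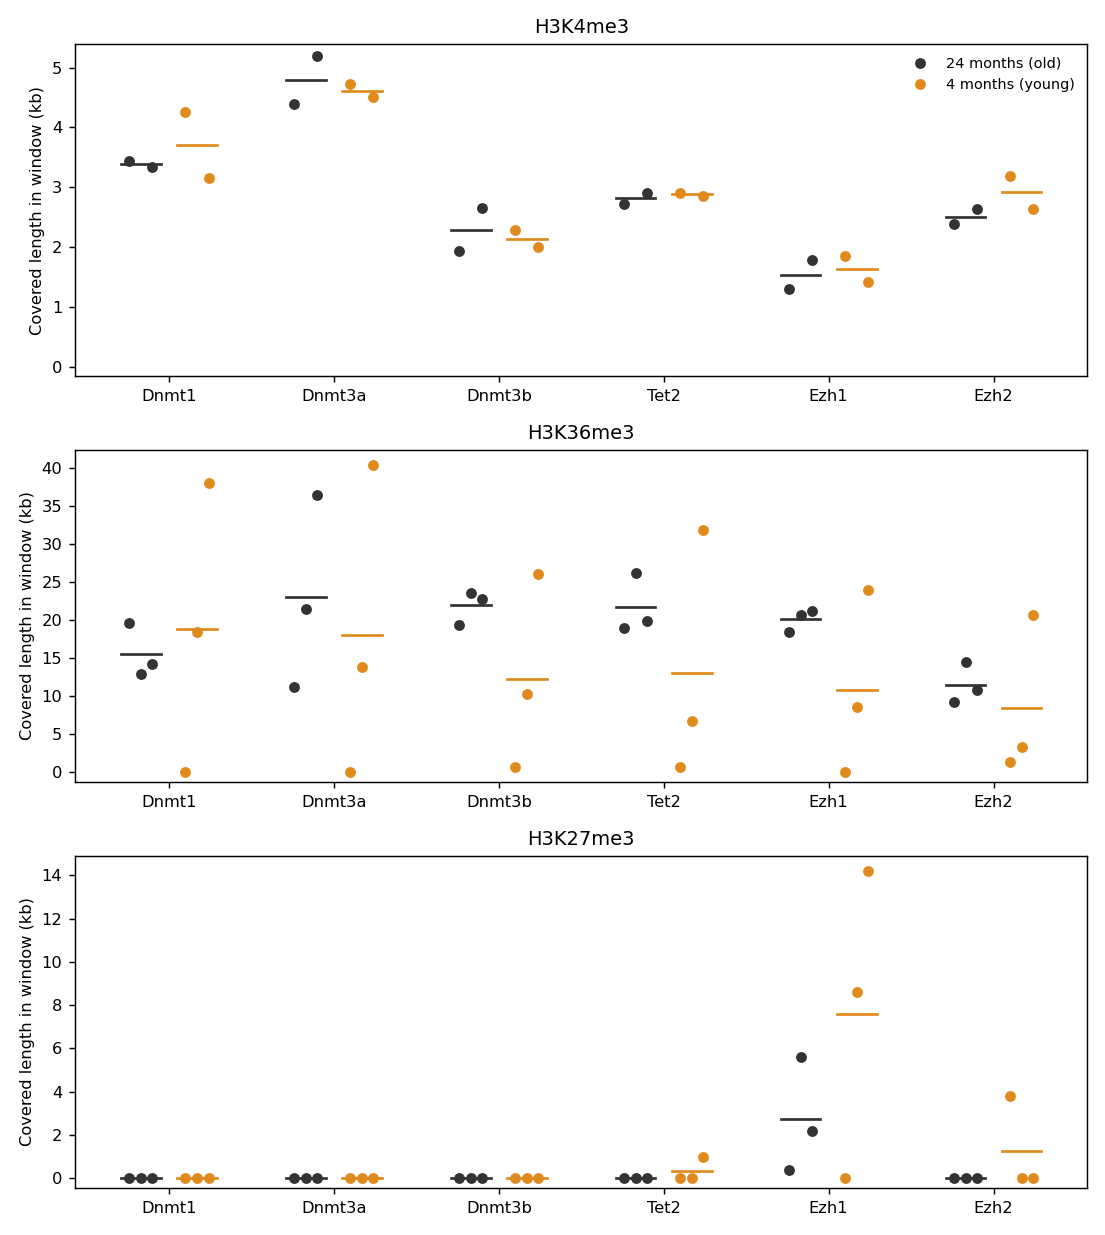
Points give the covered length in kb (vertical axis) of each list in each window, old at left and young at right of each gene, with bars at the means of 2 lists per age for H3K4me3 and 3 per age for H3K36me3 and H3K27me3. The ages overlap in every window that holds a mark, and young H3K36me3 lists spread from 0 or near 0 to the highest value in each window.

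H3K27me3, the product of Ezh1 and Ezh2, had few islands at these genes. The Dnmt1, Dnmt3a and Dnmt3b windows held 0 bp of it in all 6 lists, which says that no island was called there and not that the mark was absent, since depth is unknown. The nearest island lay 78.6 to 81.0 kb from the leading Dnmt1 region in the 5 lists other than young replicate 1, 142 to 144 kb from the Dnmt3a region and 143 to 201 kb from the Dnmt3b region. In the Tet2 window only young replicate 3 had an island, which reached 1001 bp into the window at its edge, far from the H3K4me3 region, with a score below which 19.6% of its list lay. In the Ezh2 window only young replicate 1, the list that stood apart, had an island. It was 3800 bp long, at chr6:47540201-47544000, and shared 973 bp with the H3K4me3 region.

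Ezh1 was the exception. Islands covered 401, 5601 and 2200 bp of its window in old replicates 1, 2 and 3, against 0, 8601 and 14200 bp in young replicates 1, 2 and 3. The ages overlapped because of young replicate 1, with a log2 difference of -0.53 and an exact permutation p of 0.8. Without that list all 3 old values lay below both young values, at 2734 ± 2641 bp in old (SD, n = 3) and 11400.5 ± 3959 bp in young lists (SD, n = 2). The log2 difference was then -2.47 with an exact permutation p of 0.2, where 3 against 2 lists allow 0.1 at the smallest. That list was set aside with its values at these windows known, so this order of the ages is a description only. No other window had an island in 2 or more of these lists, so Ezh1 was the only window that could separate the ages. Of 100 kb bins with islands in at least 2 lists, 8.72% then lay wholly below in old lists and 13.3% wholly above. With all 6 lists 0 windows separated the ages, against 1.86% of bins below and 9.81% above.

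The Ezh1 islands came in a pair of places. On the upstream side of the gene, next to its H3K4me3 region, the merged region at chr11:101087401-101098800 was covered over 0, 5400 and 2200 bp in old lists, against 0, 8000 and 8400 bp in young lists. The islands of old replicate 2 and young replicate 2 shared 983 and 583 bp with the H3K4me3 region, while those of old replicate 3 and young replicate 3 ended 2.02 kb short of it. Their scores were moderate, with 54.8 and 73.2% of the islands of their lists below them in old replicates 2 and 3, against 48.9 and 85.9% for the longest such islands in young replicates 2 and 3. At the other end, a larger domain at chr11:101014601-101046000, most of it outside the window, was covered over 18400, 19200 and 22400 bp in old lists, against 0, 24400 and 29400 bp in young lists. This domain lay beyond the H3K36me3 of Ezh1, on the side where Cntnap1 is the next gene in RefSeq order, and no island was assigned to a gene. In both places the order of the ages turned on young replicate 1, which had 0 bp. The share of all merged H3K27me3 regions with such an order was not counted, so the order without that list was not read as a result.

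In limma the upstream region gave a log2 difference of -0.80 (SE 1.92, adjusted p = 1) and the larger domain one of 1.94 (SE 1.81, adjusted p = 0.707), with young replicate 1 included at 0 bp in both. The sign for the larger domain turns on that list, which had no island there. Without that list the upstream region had a log2 difference of -2.59 (limma adjusted p = 0.51). Limma called 0 of these 2 H3K27me3 regions and 0 of 30998 over the genome (0%), and at an unadjusted p under 0.05 it had 0 of the 2, against 4.41% of all. The single islands of the Tet2 and Ezh2 windows were held by 1 list each and were not tested.

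**Figure D5:**
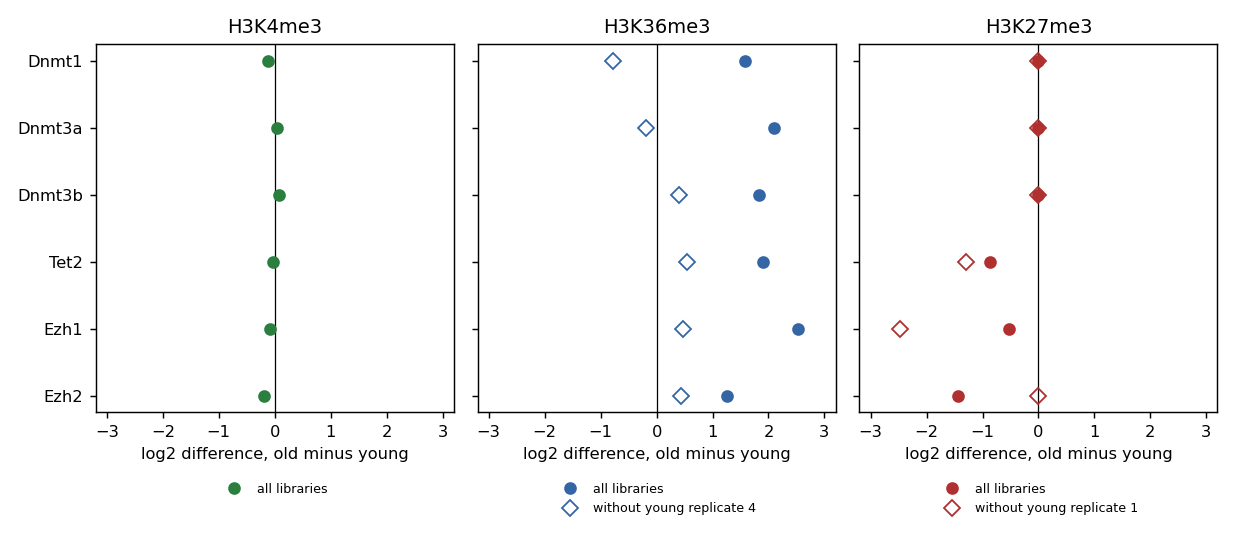
Points give the log2 difference in covered bp plus 200 of each window (horizontal axis, old minus young) for each gene, with filled circles for all lists and open diamonds without young replicate 4 for H3K36me3 or young replicate 1 for H3K27me3. H3K4me3 differences stay between -0.20 and 0.08, whereas H3K36me3 differences of 1.26 to 2.53 move to between -0.78 and 0.54 when young replicate 4 is left out.

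Sample titles carry an unexplained number, and values were also compared within a number found at both ages. Within number 18, log2 differences of old H3K4me3 replicate 7 minus young replicate 7 ran from -0.46 at Ezh1 to -0.09 at Tet2, with 1 list a side and no test. Old replicate 7 also had narrower peaks over the genome, with a median width of 1330 bp against 1676 bp in young replicate 7. It covered 27.2 Mb in all, against 29.6 Mb. The share of all bins in which it was shorter was not counted, so the window values cannot be told apart from this difference between whole lists. For H3K36me3 the old list was longer within number 16, where the young list is replicate 4, by 2.63 at Ezh2 to 6.63 at Dnmt1. Within number 18, where the young list is replicate 5 with its narrow peaks, it was longer by 1.13 at Dnmt3b to 1.65 at Ezh2 and shorter at Dnmt1, at -0.37. At Ezh1 the H3K27me3 differences were -0.60 within number 18 and -2.58 within number 20.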

How the data were processed

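The authors deposited a peak list for each library, on mm9. The submitters' processing notes name CASAVA 1.4 together with SICER and MACS. Other versions, aligner, thresholds and controls were not given in the sources used here. Each list gives positions and, as deposited, a score of unstated unit, used only to rank or filter peaks within a list. Neither read counts nor depth are known, so no counting interval is given. H3K27me3 lists are on a 200 bp grid like SICER islands, and the other lists are in the layout of MACS peaks.

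Covered bp were computed per window and list. Peaks were merged over all lists of a mark where they shared 1 bp or abutted. Covered length per merged region held by at least 2 lists was tested with limma 3.58.1 (R 4.3.3) on log2(bp + 200), with trend, empirical Bayes moderation and Benjamini-Hochberg adjustment over all regions of the mark, at a threshold of 0.05. Windows were compared with a two-sided exact permutation test of that log2 value. The background was 100 kb bins covered in at least 2 lists. Simulated regions with known changes were used to test the limma step. Python 3.11.15, numpy 2.4.6, pandas 2.3.3 and scipy 1.17.1 were used elsewhere.

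Every window was described. In each, the merged region of the longest mean coverage per mark was named, as were H3K4me3 regions held by all 4 lists. Further genes of DNA methylation and Polycomb, and cell type markers, were listed but not located, since an mm9 annotation was not used here. Gene lengths, strands, neighbours and promoters come from RefSeq on GRCm38.p6. The genes and lists were chosen with earlier results of these data known. Alternatives were a stricter score threshold, equal numbers of peaks, other scaling, pseudocount, filter and overlap, leaving out each list, title numbers and a replicate block.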

Additional observations from a re-analysis of the deposited data

How the results depend on the processing

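Limma called 0 regions of the 6 windows under every alternative run. Over the genome it called 2766 of 29028 H3K27me3 regions (9.53%) without old replicate 2, and 94, 16, 60 and 16 H3K4me3 regions (0.578, 0.0994, 0.355 and 0.0943%) without old replicates 7 and 8 and young replicates 7 and 8 in turn. With peaks at or above the median score, the H3K4me3 difference of old minus young turned to -0.012 for the Dnmt3a window and -0.080 for the Dnmt3b window and region. With equal numbers of peaks it was -0.034 and -0.080, and within title number 18 it was -0.10 and -0.22. Scaled to list totals, Dnmt3a had -0.025, and 1 H3K4me3 window, Ezh2, lay wholly below in old lists, as did 24.6% of bins. Centring each library moved the Dnmt3a regions to 0.0077 and 0.014 and the median of all regions from 0.48 to 0.01 for H3K27me3 and from 0.81 to -0.12 for H3K36me3. For H3K36me3, equal numbers of peaks gave -1.37 for the Dnmt3a window and -2.62 for its leading region, 4.38 for Tet2 and 2 windows wholly above in old lists (Tet2 and Ezh2, against 10.8% of bins), scaling gave -0.12 for Ezh2, 0.50 for Dnmt3b and 0.565 for Tet2, and title number 18 gave -0.37 for Dnmt1. Over 1 gene length without young replicate 4, chosen after the data were seen, Dnmt1, Dnmt3a and Ezh2 had -0.83, -0.19 and -0.029. For H3K27me3, the full length of islands that touch the Ezh1 window gave 1.19, since the domain at its edge then counts whole. Tet2 and Ezh2 had 0 with either score filter and within number 18, and Ezh2 also within number 20, since these settings leave no island there. The cause of the other changes was not tested.

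Leaving out each list in turn gave these ranges. For H3K4me3 they were -0.32 to 0.093 for Dnmt1, -0.071 to 0.17 for Dnmt3a, -0.13 to 0.29 for Dnmt3b, -0.075 to 0.011 for Tet2, -0.28 to 0.12 for Ezh1 and -0.33 to -0.066 for Ezh2 windows, with 1 to 5 windows separating the ages. These were 2 above without old replicate 7 (55.8% of bins), 5 below without old replicate 8 (45.7%), 1 above without young replicate 7 (44.3%) and 4 below without young replicate 8 (35.0%). The Dnmt1 regions ranged from -0.48 to 0.090 and from -0.14 to 0.085, and the Dnmt3a regions from -0.17 to 0.15 and from -0.38 to 0.37. For H3K27me3 the ranges were -2.47 to 0.61 for the Ezh1 window, -2.59 to 0.60 for its upstream region, -2.16 to 0 for Ezh2 and -1.29 to 0 for Tet2, with 0 to 1 windows separating the ages. For H3K36me3 they were -0.78 to 3.01 for Dnmt1, -0.19 to 3.64 for Dnmt3a, 0.41 to 2.87 for Dnmt3b, 0.54 to 3.13 for Tet2, 0.47 to 3.93 for Ezh1 and 0.43 to 2.31 for Ezh2, with 0 to 4 windows separating the ages. The 4 were Dnmt3b, Tet2, Ezh1 and Ezh2, above in old lists without young replicate 6, as were 69.8% of bins. The leading H3K36me3 regions ranged from 0.057 without young replicate 4 to 3.89. A lone list of an age was assumed to vary like the others. With the replicate block, limma called 0 regions of the windows for each mark. The replicate numbers were not taken to pair the samples. Correlations of same-numbered deviations were 0.0998, 0.143 and 0.0208 for H3K27me3 and 0.0598, -0.0311 and 0.0326 for H3K36me3. Not every sample correlated best with its own number. For H3K4me3 the value was 0.00456, a size that 2 lists per age give to every pair by construction. By title number, H3K36me3 lists sharing 16 and 18 had 0.0598 and 0.0428. H3K27me3 lists sharing 18 and 20 had 0.143 and 0.0208. No block by title number was fitted.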
